A study of Mus musculus with 10 samples.

Results

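The genes described here are 9 members of bone morphogenetic protein (BMP) signalling: the ligands Bmp2, Bmp4 and Bmp6, the receptor Bmpr1a, the secreted antagonists Grem1 and Nog, and the target genes Id1, Id2 and Id3. They were taken by name from the array annotation, which covered 19057 genes, and each was read from its brightest probe. All 9 had a probe, 13 probes in all, 7 were detected on at least 1 array and 4 on all 10. Total RNA was measured on 10 Illumina mouse bead arrays. Every sample came from adult bone marrow mesenchymal stem cells (MSC) of C57BL/6J mice. Reprogrammed adipocytes, reprogrammed chondrocytes and reprogrammed osteocytes stood on 1 array each, and so did differentiated adipocytes, differentiated chondrocytes and differentiated osteocytes. Osteocytes derived in vivo stood on 1 array treated, with a treatment that the labels used here do not name, and on 1 array untreated. Undifferentiated MSC, the starting cells, stood on 2 arrays, called MSC 1 and MSC 2.

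BMPs are secreted dimers that bind a pair of receptor kinases on the cell surface, after which receptor-activated Smad proteins enter the nucleus with Smad4 and switch on target genes. The Id genes are among the most direct of these targets and encode proteins that bind basic helix-loop-helix transcription factors and keep them off DNA. Grem1 and Nog encode gremlin and noggin, which bind BMPs outside the cell and block access to the receptor. In marrow stroma the pathway is known for driving osteoblast and chondrocyte formation and for a part in adipocyte commitment.

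Levels are given on a log2 scale, as background-corrected and quantile-normalised intensities, so that 1 unit is a 2-fold difference. A gene counts as detected where the detection p-value of its probe is below 0.01. Between 14896 and 16737 probes were detected per array. Only MSC had a replicate, and nothing states whether MSC 1 and MSC 2 were separate cultures, so their spread may be technical. In the tests the lineages of a class served as its replicates. Where reprogrammed and differentiated arrays were paired by lineage, the p-values therefore measure how far the differences within pairs disagree. In the fit with MSC they measure the spread between lineages and that between the MSC arrays. Precision is limited throughout by how few arrays there are. Deposited intensities of 8 arrays shared 1 distribution with a mean of 538, while the reprogrammed and differentiated osteocyte arrays had means of 413 and 324; on these arrays a difference of scale and osteocyte lineage cannot be told apart when they are set against MSC. Of 11 macrophage markers measured, 11 were detected on the differentiated chondrocyte array and 11 on the in vivo osteocyte array, with summed deposited intensities of 162692 and 166212. On the other 8 arrays 1 to 3 were detected, with sums from 1086 to 2147. Of 6 adipocyte markers, 6 were detected on the differentiated adipocyte array, against 2 to 4 elsewhere. Of 8 chondrocyte markers, 5 were detected on the differentiated chondrocyte array, against 1 to 3 elsewhere. Comp, Chad and Col11a2 were highest there. Col2a1 (8.28, against 11.09 in reprogrammed adipocytes) and Sox9 (9.41, against 10.97 on MSC 1) were not. Of 10 osteoblast and osteocyte markers, 6 were detected on the in vivo osteocyte array, against 3 to 5 elsewhere. Differentiated osteocytes had 5, as had reprogrammed osteocytes, MSC 1 and MSC 2, so this count does not set differentiated osteocytes apart from MSC. Among these markers Dmp1, Sost and Mepe were detected on no array, and the cartilage proteoglycan gene Acan on none. Of 7 endothelial markers, 0 to 2 were detected per array.

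Smad proteins act at the promoters of their targets, so promoters are printed for Bmp4 and Grem1, the members of widest range, and for Id2 and Id3, as the 250 bases before the transcription start in RefSeq (GRCm38.p6). Letters in capitals mark GGCGCC, the GC-rich element bound by Smad1 and Smad5, and CAGAC, the Smad box, which reads GTCTG on the other strand; both strands were searched, and the matches printed do not overlap. GGCGCC occurs in 9.59% of 32851 mouse promoter windows of this length and CAGAC in 42.2%. The Bmp4 window is chr14:46390670-46390919 (minus strand), Grem1 at chr2:113758649-113758898 (minus strand), Id2 at chr12:25096093-25096342 (minus strand) and Id3 at chr4:136143572-136143821 (plus strand).
Bmp4: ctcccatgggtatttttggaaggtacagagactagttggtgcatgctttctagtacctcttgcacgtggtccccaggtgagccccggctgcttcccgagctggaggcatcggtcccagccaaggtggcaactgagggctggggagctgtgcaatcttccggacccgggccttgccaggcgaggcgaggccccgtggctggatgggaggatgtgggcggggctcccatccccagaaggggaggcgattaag
Grem1: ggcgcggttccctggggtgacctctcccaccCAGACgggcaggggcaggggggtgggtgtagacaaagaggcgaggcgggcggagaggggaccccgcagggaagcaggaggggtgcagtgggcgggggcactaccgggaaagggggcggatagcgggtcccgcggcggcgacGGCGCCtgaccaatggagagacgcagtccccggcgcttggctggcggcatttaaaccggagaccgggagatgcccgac
Id2: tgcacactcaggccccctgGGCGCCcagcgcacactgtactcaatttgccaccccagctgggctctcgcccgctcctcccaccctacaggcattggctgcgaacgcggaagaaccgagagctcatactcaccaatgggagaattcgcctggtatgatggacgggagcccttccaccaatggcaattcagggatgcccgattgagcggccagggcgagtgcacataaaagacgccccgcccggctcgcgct
Id3: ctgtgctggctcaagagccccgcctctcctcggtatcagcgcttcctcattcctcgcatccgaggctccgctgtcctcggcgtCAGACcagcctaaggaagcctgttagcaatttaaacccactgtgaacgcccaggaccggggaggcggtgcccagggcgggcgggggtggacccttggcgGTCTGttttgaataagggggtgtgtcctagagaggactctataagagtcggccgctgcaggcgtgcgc
Grem1 has 1 GGCGCC and 1 CAGAC, Id2 has 1 GGCGCC, Id3 has 2 CAGAC, and the Bmp4 window has 0 of either. Such a match is a description of the window only. Of the 6 members in the promoter table, 3 held GGCGCC and 3 held CAGAC.

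**Figure D1:**
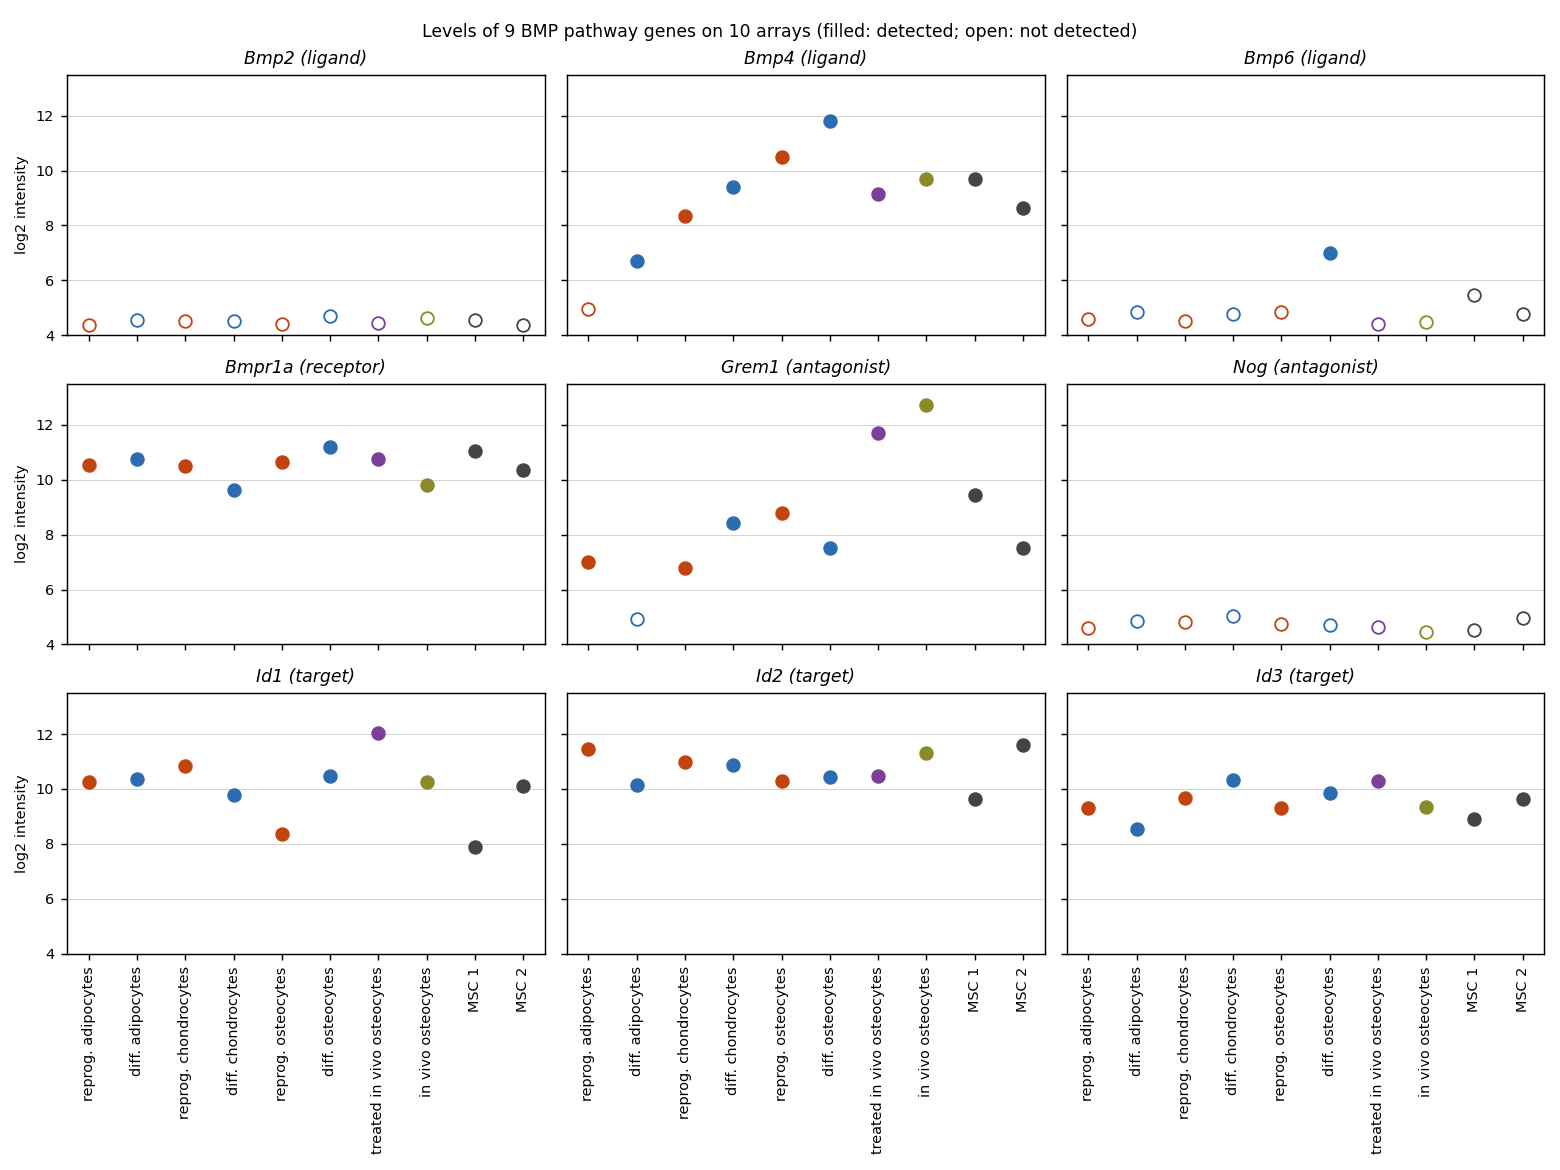
Log2 intensity (y axis) of the 9 genes, 1 panel each, on the 10 arrays (x axis); filled points are detected (p under 0.01) and open points are not. Bmp2 and Nog are open on every array, Bmp4 runs from 4.94 to 11.79 and Grem1 from 4.93 to 12.74.

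Among the ligands, Bmp4 was detected on 9 of the 10 arrays. Its level was 4.94 in reprogrammed adipocytes, where it was not detected, and 6.71 in differentiated adipocytes. It was 8.33 in reprogrammed chondrocytes and 9.40 in differentiated chondrocytes, then 10.49 in reprogrammed osteocytes and 11.79 in differentiated osteocytes. The in vivo osteocytes had 9.15 treated and 9.70 untreated, MSC 1 9.71 and MSC 2 8.63. Bmp4, a ligand that drives bone and cartilage formation, was thus highest on the reprogrammed and differentiated osteocyte arrays and lowest on the adipocyte arrays of both kinds, and in each lineage the reprogrammed array lay below its differentiated partner. In these bulk samples, fewer expressing cells and less RNA per cell cannot be told apart. Neighbours in the order from reprogrammed osteocytes (10.49) down to reprogrammed chondrocytes (8.33) were at most 0.78 apart, less than the 1.08 between the MSC arrays. The step above that stretch was 1.30, within the osteocyte pair, and the step below it 1.62, from reprogrammed chondrocytes to differentiated adipocytes. Reprogrammed adipocytes, where Bmp4 was not detected, have only an upper limit.

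Bmp6, a ligand known for control of iron and of bone, was detected on 1 array only. Reprogrammed osteocytes had 4.85, differentiated osteocytes 7.00, MSC 1 5.48 and MSC 2 4.79, and the 6 other arrays lay from 4.40 to 4.85. Where a gene was not detected, its array was set to the lowest value among that array's detected probes, or to its own value where higher, and the fold is given as a lower limit. Bmp6 was at least 3.04-fold lower in reprogrammed than in differentiated osteocytes, and differentiated osteocytes were at least 2.77-fold above MSC. Bmp2, a strong inducer of bone, was detected on no array, with levels from 4.36 to 4.69 by its single probe. A second Bmp4 probe, ILMN_1235698, was also detected on no array.

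Bmpr1a, a type I receptor for BMP2 and BMP4, was detected on all 10 arrays. The reprogrammed arrays had 10.53 for adipocytes, 10.49 for chondrocytes and 10.66 for osteocytes, and the differentiated arrays 10.75, 9.61 and 11.20 in the same order. Treated in vivo osteocytes had 10.76, in vivo osteocytes 9.81, MSC 1 11.05 and MSC 2 10.37. Its lowest levels were thus on the differentiated chondrocyte and in vivo osteocyte arrays, the pair on which all 11 macrophage markers were detected; their part in this was not tested. The whole range, 1.59, is close to the median range of 1.71 over 11670 detected genes. Neighbouring levels were at most 0.56 apart, less than the 0.68 between the MSC arrays. The dimmer probe, ILMN_2653312, was lowest on the same pair of arrays, with 6.45 in differentiated chondrocytes and 5.69 in in vivo osteocytes, and highest at 7.90 in differentiated adipocytes.

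Of the antagonists, Grem1 had the widest range of the 9 genes, 7.81, and 0.626% of detected genes ranged at least as far, against 1.35% for Bmp4 and 8.76% for Id1. Reprogrammed adipocytes had 7.00, and differentiated adipocytes 4.93 without detection. Reprogrammed chondrocytes had 6.80 and differentiated chondrocytes 8.43, while reprogrammed osteocytes had 8.78 and differentiated osteocytes 7.51. Treated in vivo osteocytes stood at 11.69, in vivo osteocytes at 12.74, MSC 1 at 9.44 and MSC 2 at 7.51. Both in vivo osteocyte arrays were above every other array. The treated array had 3 of 11 macrophage markers detected and a Grem1 level 2.25 above the next, MSC 1; the untreated array had 11 of 11. From MSC 1 down to differentiated adipocytes no neighbouring levels were farther apart than the MSC arrays were from each other (1.93). Nog, the gene of noggin, was detected on no array by its single probe, with levels from 4.46 to 5.03.

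The Id genes, targets of BMP receptors, were detected on all 10 arrays. Id1 had 10.25 in reprogrammed and 10.37 in differentiated adipocytes, 10.85 in reprogrammed and 9.79 in differentiated chondrocytes, and 8.36 in reprogrammed and 10.46 in differentiated osteocytes. Its level was 12.03 in treated in vivo osteocytes, 10.25 in in vivo osteocytes, 7.90 on MSC 1 and 10.10 on MSC 2. The treated in vivo osteocytes stood highest, reprogrammed osteocytes and MSC 1 stood lowest, and the 7 others lay between 9.79 and 10.85. The MSC arrays differed in Id1 by 2.20, a gap that 1.65% of detected genes matched or exceeded, so no neighbouring levels differed by more than this spread. The median of 6 cell cycle markers was 9.62 in reprogrammed osteocytes, 9.94 in treated in vivo osteocytes, 8.64 on MSC 1 and 10.35 on MSC 2. It was 10.45 in reprogrammed and 5.22 in differentiated adipocytes, and 10.64 in reprogrammed and 5.73 in differentiated chondrocytes. Differentiated osteocytes had 7.33 and in vivo osteocytes 7.43. The part of these markers in the Id1 levels was not tested.

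Id2 had 11.46 in reprogrammed and 10.14 in differentiated adipocytes, 11 in reprogrammed and 10.86 in differentiated chondrocytes, and 10.28 in reprogrammed and 10.45 in differentiated osteocytes. It had 10.48 in treated in vivo osteocytes, 11.31 in in vivo osteocytes, 9.62 on MSC 1 and 11.60 on MSC 2. The MSC arrays were therefore the lowest and the highest of all 10 for this gene. Id3 had 9.32 in reprogrammed and 8.54 in differentiated adipocytes, 9.68 in reprogrammed and 10.33 in differentiated chondrocytes, and 9.29 in reprogrammed and 9.86 in differentiated osteocytes. Id3 had 10.28 in treated in vivo osteocytes, in vivo osteocytes 9.33, MSC 1 8.92 and MSC 2 9.62. Id3 thus varied by 1.79 in all, and neighbouring levels were at most 0.42 apart, against 0.70 between the MSC arrays. All of Id1, Id2 and Id3 were lower on MSC 1 than on MSC 2, while Bmp4, Bmpr1a and Grem1 were higher on MSC 1.

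The 3 probes of Id2 did not run together. ILMN_1228557, the brightest, and ILMN_2887239 correlated at r = 0.858 over the 10 arrays, but ILMN_1236868 correlated with them at 0.423 and 0.188. ILMN_1236868 had 8.44 in reprogrammed and 11.19 in differentiated chondrocytes, and 6.74 in reprogrammed and 8.66 in differentiated osteocytes. It was highest on the differentiated chondrocyte array and on the in vivo osteocyte array (10.91), where 11 of 11 macrophage markers were detected, and their part in this was not tested. ILMN_2887239 had 10.17 in reprogrammed and 8.59 in differentiated adipocytes, and 9.86 in reprogrammed and 8.59 in differentiated chondrocytes. The transcripts that each probe reads were not analysed here, and the direction of some Id2 differences turned with the probe. All 3 probes had the same sign in the osteocyte pair, at -0.17, -1.93 and -0.72, and for treated minus untreated in vivo osteocytes, at -0.83, -1.13 and -0.60. In the chondrocyte pair they had 0.14, -2.74 and 1.27.

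**Figure D2:**
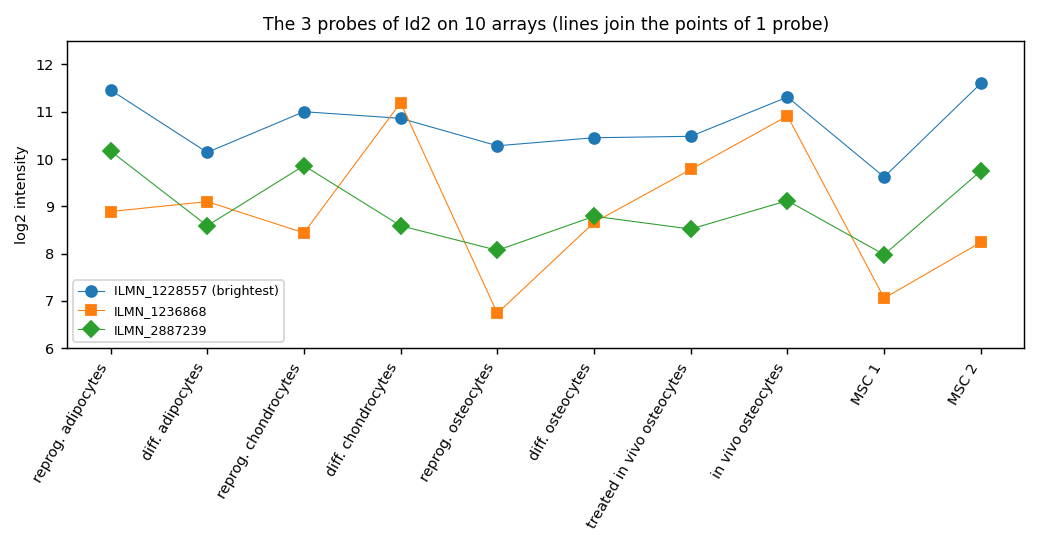
Log2 intensity (y axis) of the 3 Id2 probes on the 10 arrays (x axis), with 1 line per probe. ILMN_1236868 peaks at 11.19 in differentiated chondrocytes and is lowest at 6.74 in reprogrammed osteocytes, while the other probes vary by 1.98 and 2.19.

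Reprogrammed populations were next set against the differentiated population of the same lineage. The chondrocyte partners also differed in macrophage markers, with 2 of 11 detected in reprogrammed and 11 of 11 in differentiated chondrocytes. In every lineage the partners differed in the cell cycle medians given above. The part of these markers in the differences was not tested. Bmp4 lay lower in all 3 pairs, by at least 2.23-fold in adipocytes and, in log2 units, 1.08 in chondrocytes and 1.30 in osteocytes. Grem1 was 2.08 higher in reprogrammed adipocytes (at least 2.34-fold) and 1.27 higher in reprogrammed osteocytes, but had -1.63 in the chondrocyte pair. Id1 had -0.12 in the adipocyte pair, 1.06 in the chondrocyte pair and -2.11 in the osteocyte pair. Id2 was 1.32 higher in reprogrammed adipocytes by its brightest probe and 1.58 by ILMN_2887239, against -0.21 by ILMN_1236868. Id3 and Bmpr1a stayed under 1 unit in every pair, with Id3 at 0.78, -0.64 and -0.57 and Bmpr1a at -0.22, 0.88 and -0.54 in adipocytes, chondrocytes and osteocytes.

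Counted at 2-fold or more with detection on the higher side, 2 of the 9 genes were higher in reprogrammed adipocytes (Grem1 and Id2) and 1 was lower (Bmp4), against 18.1% and 18.4% of detected genes. In chondrocytes 1 was higher (Id1) and 2 were lower (Bmp4 and Grem1), against 18.9% and 20.4%. In osteocytes 1 was higher (Grem1) and 3 were lower (Bmp4, Bmp6 and Id1), against 9.05% and 12.8%. The percentages are over genes detected on at least 1 array of the pair. This held for 6 of the 9 genes in adipocytes, 6 in chondrocytes and 7 in osteocytes. With so few genes these shares do not set the members apart from other genes. The pairs had 1 array on each side, so no test was possible within a pair.

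**Figure D3:**
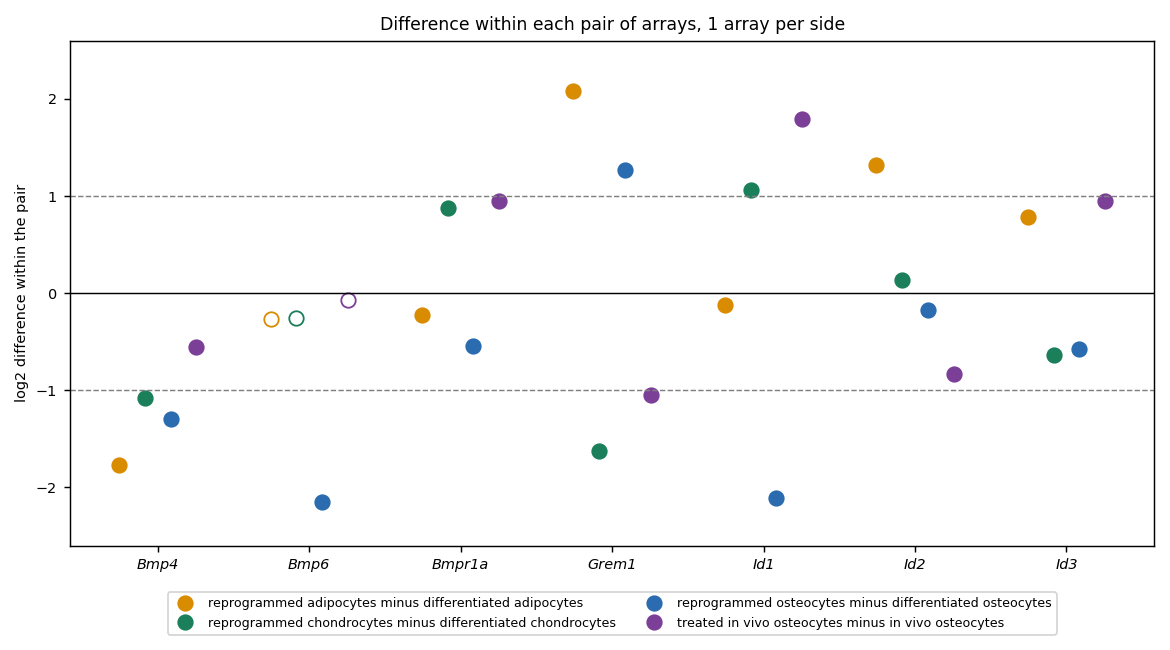
Log2 difference (y axis) of the 7 genes detected on at least 1 array (x axis) within each of 4 pairs of arrays, coloured by pair; open points were detected on neither side and dashed lines mark 2-fold. Bmp4 lies below 0 in all 4 pairs (not detected in reprogrammed adipocytes), while Grem1 and Id1 lie on both sides of 0.

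The difference common to the 3 lineages was tested with limma over the 3 pairs, with lineage as a block. Of the 9 genes, 6 were detected on enough arrays to be tested. Bmp4 averaged 7.92 ± 2.80 in reprogrammed and 9.30 ± 2.54 in differentiated populations (SD, n = 3 each), and the groups overlapped because the lineages differ. The paired difference was -1.38 ± 0.35 (SE; 95% interval -2.23 to -0.53), at least 2.26-fold lower over the 3 pairs, with an unadjusted p of 0.00703 and an adjusted p of 0.13 by limma. It was lower in 3 of 3 pairs but did not pass. Over the settings tried, its adjusted p ran from 0.125 to 0.687, the highest without the lineage block.

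None of the other 5 passed either. Grem1 had 0.57 ± 0.72 (SE; interval -1.16 to 2.30), Id1 -0.39 ± 0.62 (-1.89 to 1.11), Id2 0.43 ± 0.42 (-0.58 to 1.45), Id3 -0.14 ± 0.42 (-1.17 to 0.88) and Bmpr1a 0.04 ± 0.41 (-0.96 to 1.04), with adjusted p from 0.606 to 0.968 by limma. By its second probe, ILMN_1236868, Id2 had -1.63 (adjusted p = 0.188 by limma), opposite in sign to its brightest probe. The intervals of Grem1 and Id1 reach beyond a 2-fold difference either way. Grem1 was not detected in differentiated adipocytes, so its values rest partly on background, with a lower limit of 1.22-fold. Without the osteocyte arrays Id1 had 0.47, and without the adipocyte arrays Grem1 had -0.18. By limma 0 of the 6 genes passed, against 0.276% of 17728 probes, and 1 of 6 had an unadjusted p under 0.05, against 19.7% of probes. The median over the 6 was -0.05 and that over all probes tested was 0.10.

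**Figure D4:**
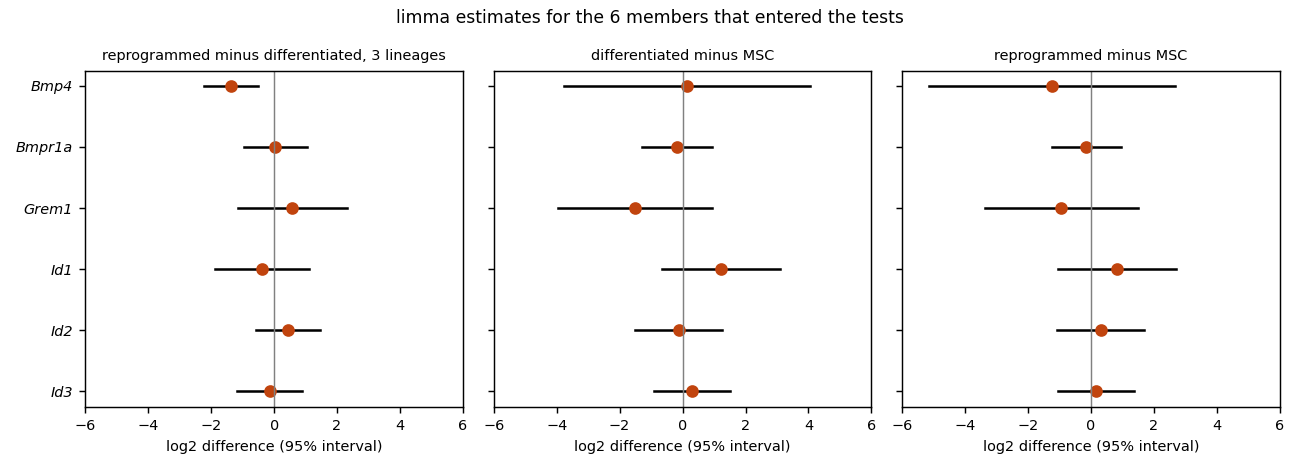
limma log2 differences (points) with 95% intervals (bars) on the x axis for the 6 genes tested (y axis), in 3 comparisons. The interval of Bmp4 for reprogrammed minus differentiated runs from -2.23 to -0.53, and the other intervals cover 0.

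Differentiated populations were then tested against MSC in a fit of 8 arrays, which addressed what differentiation shared across lineages. Id1 averaged 10.21 ± 0.37 in differentiated populations (SD, n = 3) and 9.00 ± 1.55 in MSC (SD, n = 2). All 3 differentiated values lay above MSC 1, but that of chondrocytes lay below MSC 2, so the groups overlapped. The difference was 1.21 ± 0.82 (SE; interval -0.66 to 3.08; adjusted p = 0.725 by limma), with 0.11 left without MSC 1 and 2.31 without MSC 2. Grem1 averaged 6.96 ± 1.82 in differentiated populations (n = 3) and 8.47 ± 1.36 in MSC (n = 2), a difference of -1.52 ± 1.07 (SE; interval -3.95 to 0.92; adjusted p = 0.737 by limma). Grem1 was not detected in differentiated adipocytes, so these values rest partly on background. As a lower limit it was at least 2.35-fold lower. Without MSC 1 the Grem1 difference was -0.55, and without MSC 2 it was -2.48. Bmp4, Bmpr1a, Id2 and Id3 differed by 0.13, -0.19, -0.12 and 0.30. The Id2 probe ILMN_1236868 had 2.00, opposite in sign to the brightest probe (unadjusted p = 0.0486, adjusted p = 0.576 by limma). By their brightest probes, 0 of 6 genes passed in limma, against 0.0165% of 18131 probes, and 0 had an unadjusted p under 0.05, against 8.67% of probes.

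Reprogrammed populations against MSC, in the same fit, addressed what still set them apart from the starting cells. Bmp4 averaged 7.92 ± 2.80 in reprogrammed populations (n = 3) and 9.17 ± 0.76 in MSC (n = 2), with reprogrammed osteocytes above both MSC arrays and reprogrammed adipocytes far below them. The difference of -1.25 ± 1.71 (SE; interval -5.16 to 2.66) was 0.24 without the adipocyte arrays. Bmp4 was not detected in reprogrammed adipocytes, so this difference rests partly on background, with a lower limit of 2.07-fold. Grem1 had -0.94 ± 1.07 (-3.38 to 1.49), Id1 0.82 ± 0.82 (-1.05 to 2.69), Id2 0.31 ± 0.60 (-1.07 to 1.69), Id3 0.16 ± 0.53 (-1.05 to 1.37) and Bmpr1a -0.15 ± 0.48 (-1.25 to 0.96). The adjusted p was 1 by limma for all 6, and every one of these intervals holds a 2-fold difference in at least 1 direction. By limma 0% of 18131 probes passed; 0 of the 6 genes had an unadjusted p under 0.05, against 0.397% of probes. Leaving out MSC 1 turned Id1, Id2 and Id3 to -0.28, -0.68 and -0.19.

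Single populations were set against both MSC arrays by a count alone: a gene had to lie 2-fold or more beyond each of them. The percentages are over genes detected on at least 1 array of the comparison. This held for 6 of the 9 members, or 7 with differentiated osteocytes. In reprogrammed adipocytes Bmp4 was at least 12.3-fold lower than MSC, the 1 gene counted there (0 higher), against 0.208% of detected genes higher and 1.02% lower. In differentiated adipocytes Grem1 was at least 6.47-fold lower and Bmp4 5.51-fold lower, so 2 of 9 were lower, against 10.5% of genes, and 0 higher, against 10.1%. Reprogrammed chondrocytes had 0 of 9 on either side (0.377% and 0.724% of genes higher and lower), and differentiated chondrocytes likewise 0 (13.7% and 10.6%). Among the 8 populations, lower counts were thus found on the adipocyte arrays only, at 1 and 2 genes. With so few genes these shares do not set the members apart from other genes.

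On the osteocyte arrays no gene counted as lower than MSC, and 0 to 2 counted as higher. Reprogrammed osteocytes had 0 of 9 (1.15% and 0.533% of genes higher and lower). In differentiated osteocytes Bmp4 was 6.15-fold higher than the MSC mean and Bmp6 at least 2.77-fold higher, 2 of 9, against 4.98% of genes, with 0 lower, against 2.93%. Treated in vivo osteocytes had 2 higher, Grem1 at 9.3-fold and Id1 at 8.2-fold, against 7.54% of genes, and 0 lower, against 7.52%. In vivo osteocytes had 1 higher, Grem1 at 19.3-fold, against 13.1%, and 0 lower, against 8.28%. Grem1 there lay 3.30 above MSC 1 and 5.23 above MSC 2, and Id1 in treated in vivo osteocytes 4.13 above MSC 1 and 1.94 above MSC 2.

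Treated in vivo osteocytes were set against untreated ones, 1 array each, with no test. Id1 was 1.79 higher on the treated array, Id3 0.95 and Bmpr1a 0.95 higher (1.85 by the dimmer Bmpr1a probe), while Grem1 had -1.05, Id2 -0.83 and Bmp4 -0.55. Of the 9 genes, 6 of them detected on either array, 1 was 2-fold higher (Id1), against 14.9% of detected genes. The 1 gene 2-fold lower was Grem1, against 18.5%. Macrophage markers differed between these arrays, with 3 of 11 detected on the treated and 11 of 11 on the untreated array; their part in these values was not tested.

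Other genes of the pathway were read from a list of 54, of which 49 had a probe and 31 were detected on at least 1 array. By role, 9 of 9 receptors and co-receptors, 8 of 9 targets, 7 of 13 antagonists, 5 of 8 signalling genes and 2 of 10 ligands were detected on some array. Bmpr2 and Acvr1, further BMP receptors, and Smad1 and Smad5, receptor-activated Smads, were detected on all 10 arrays with ranges of 1.49, 1.30, 1.13 and 1.43. Smad7 and Bambi, inhibitors that BMP signals are known to induce, and the target Msx2 were detected nowhere by their brightest probes.

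Among the extracellular antagonists, Chrd, the gene of chordin, a BMP-binding protein, had 5.54 in reprogrammed and 8.05 in differentiated adipocytes, 4.93 and 7.44 in reprogrammed and differentiated chondrocytes, and 5.50 and 8.93 in reprogrammed and differentiated osteocytes, against 7.42 on MSC 1 and 5.55 on MSC 2. It lay lower in 3 of 3 pairs, by -2.82 ± 0.38 (SE), at least 6.37-fold. Its adjusted p of 0.0561 by limma missed the threshold. Chrd was detected on 1 of the 3 reprogrammed arrays and on 3 of the 3 differentiated ones. The differentiated arrays alone would have placed it among the probes tested, and its undetected reprogrammed values are at background. Its SE and adjusted p are therefore a description only. Bmper, a secreted regulator that binds BMPs, had 5.90 in reprogrammed and 6.97 in differentiated adipocytes, 5.06 and 9.93 in the chondrocyte pair in that order, and 5.82 and 8.74 in the osteocyte pair. Its common difference was -2.95 ± 0.70 (at least 7.22-fold; adjusted p = 0.116 by limma), and it stood highest, at 10.66, in treated in vivo osteocytes, against 8.20 in in vivo osteocytes. Fst, or follistatin, which binds activins and some BMPs, was above both MSC arrays in differentiated chondrocytes (at least 24.9-fold), differentiated osteocytes (at least 6.89-fold), treated in vivo osteocytes (at least 6.4-fold) and in vivo osteocytes (at least 5.42-fold). On the differentiated chondrocyte and in vivo osteocyte arrays 11 of 11 macrophage markers were detected. Their part in the values of Chrd, Bmper and Fst was not tested.

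Fstl3, a relative of follistatin, had 9.07 in reprogrammed adipocytes and was not detected in differentiated adipocytes, at 4.72. Its differences from the MSC mean were -2.08 in treated in vivo osteocytes and -2.37 in in vivo osteocytes. Fstl1, a secreted glycoprotein of the follistatin family, was 2.67 higher in the adipocyte pair, 0.53 in the chondrocyte pair and 1.96 in the osteocyte pair. Among the ligands, Bmp8a was detected in neither reprogrammed nor differentiated adipocytes, at 4.69 and 4.83. It had 5.19 in reprogrammed and 8.91 in differentiated chondrocytes, and 7.09 in reprogrammed and 10.49 in differentiated osteocytes. The last value was the highest of the 10, on the array where Bmp4 and Bmp6 were highest too.

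Id4, the fourth Id gene, was detected on no reprogrammed array and on every differentiated one. Its levels were 4.74, 4.71 and 4.73 in reprogrammed adipocytes, chondrocytes and osteocytes, against 6.39, 7.29 and 8.86 in the differentiated arrays of the same order. It lay lower in 3 of 3 pairs, at least 1.78-fold in adipocytes, 3.81-fold in chondrocytes and 11.1-fold in osteocytes. Its place among the probes tested came from the differentiated arrays alone, and the reprogrammed values are at background, so no test is given. For Id4, treated in vivo osteocytes had 7.27, in vivo osteocytes 6.27, MSC 1 5.71 and MSC 2 4.79.

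Smad6, an inhibitory Smad and a known BMP target, had 5.48 in differentiated chondrocytes, 7.05 in differentiated adipocytes, 6.53 in treated in vivo osteocytes and 6.06 in in vivo osteocytes, each more than 2-fold below both MSC arrays, at 8.47 and 9.09. All 3 reprogrammed arrays lay from 8.88 to 9.06, and differentiated osteocytes had 9.12. Sp7, or osterix, a transcription factor of osteoblasts, had 9.89 in reprogrammed and 5.23 in differentiated adipocytes, and 9.18 in reprogrammed and 6.47 in differentiated chondrocytes. In the osteocyte pair it had 9.18 in reprogrammed and 8.99 in differentiated cells. It was not detected in treated in vivo osteocytes, at 4.45, against 9.27 in in vivo osteocytes, at least 14.5-fold lower. Hey1, a transcriptional repressor, was detected on 3 arrays, with 5.86 in differentiated adipocytes, 7.04 in differentiated chondrocytes and 6.48 in in vivo osteocytes. For differentiated chondrocytes and in vivo osteocytes the macrophage markers noted above apply to these values too, and their part was not tested. The same holds for Fstl1, Fstl3, Bmp8a and Id4 on these arrays.

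In the tests, 29 of the 49 genes entered and 0 passed in any comparison by limma. With an unadjusted p below 0.05, reprogrammed minus differentiated had 5 higher and 6 lower, where 19.7% of all probes reached that p, with a median of -0.27 over the 29, against 0.10 over all probes. For differentiated minus MSC 4 lay higher and 3 lower, where 8.67% of probes did, with a median of 0.21, against -0.09. For reprogrammed minus MSC 0 lay on either side, where 0.397% of probes did, with a median of -0.14, against 0.01. Both the 6 lower and the 4 higher include Id4, for which no test is given above, so these counts are a description only. Counted against both MSC arrays, differentiated chondrocytes had 10 of the 49 higher and 3 lower (against 13.7% and 10.6% of detected genes; 27 to 30 of the 49 were detected in each of these comparisons) and differentiated osteocytes 7 higher and 0 lower (4.98% and 2.93%). Differentiated adipocytes had 3 higher and 7 lower (10.1% and 10.5%), treated in vivo osteocytes 4 and 6 (7.54% and 7.52%) and in vivo osteocytes 6 and 5 (13.1% and 8.28%). The reprogrammed populations had 0 higher and, with Bmp8a in adipocytes, 1 lower in all. Of detected genes 0.208%, 0.377% and 1.15% were higher in reprogrammed adipocytes, chondrocytes and osteocytes, and 1.02%, 0.724% and 0.533% were lower. At such shares the counts of the reprogrammed populations do not set the pathway genes apart. In the other populations some counts lay above the share of detected genes, as with 7 of 27 detected pathway genes higher in differentiated osteocytes (4.98%). Others lay near it, as with 3 of 30 lower in differentiated chondrocytes (10.6%). These shares were not tested.

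**Figure D5:**
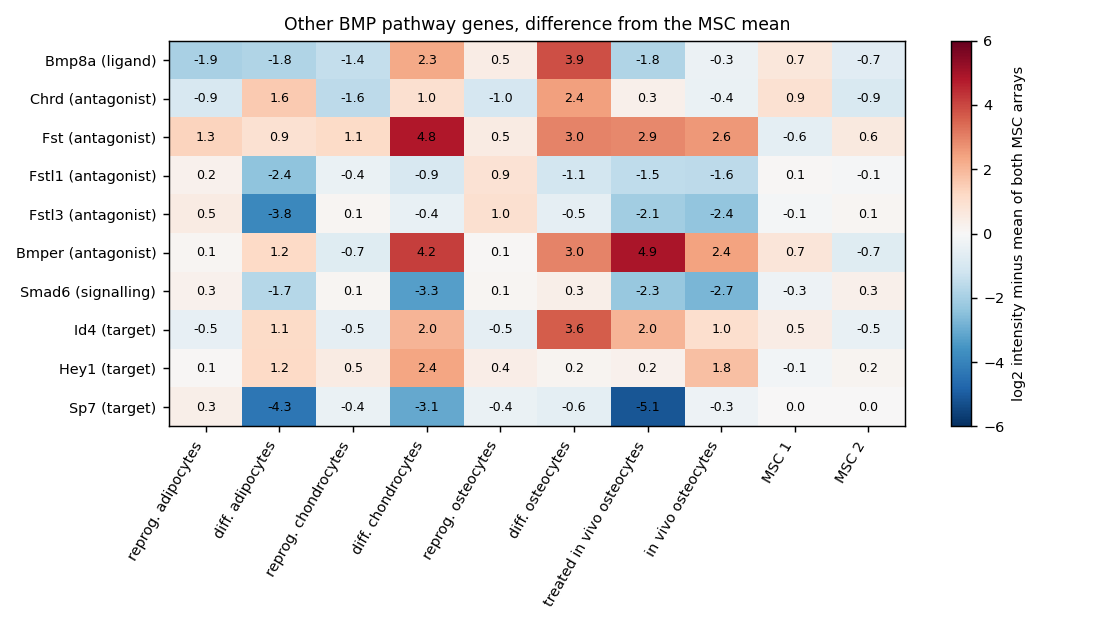
Log2 intensity minus the mean of both MSC arrays (colour and printed value) for 10 further pathway genes (rows) on the 10 arrays (columns). Chrd, Bmper and Id4 are lower in each reprogrammed array than in its differentiated partner, and all but Fstl1 and Smad6 were undetected on at least 1 array, where the value is set by background.

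Over the 10 arrays, which share 1 platform and, for 8 of them, 1 distribution of intensities, Pearson's r between pairs of the 6 widely detected members ran from -0.597, for Bmpr1a and Id2, to 0.48, for Id1 and Id3. Genes with the most similar pattern were sought among 8803 genes detected on at least 5 arrays. For Bmp4 these were Zfp61 (r = 0.978), Dmpk (0.907) and Eps8 (0.893). Grem1 was most like Neurl2 (0.935), Ctxn1 (0.932) and Akr1b8 (0.909), and Id1 most like Chd1 (0.949), Wrap53 (0.946) and Wdr73 (0.911). Bmpr1a had Stab1 (0.965), Specc1l (0.96) and Cdkn1b (0.948), Id2 had Cd3eap (0.918), Pik3cb (0.902) and Lrp8 (0.871), and Id3 had Zfp870 (0.925), Znrd1 (0.917) and Mtmr12 (0.917). These values describe 10 arrays and carry no test.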

How the data were processed

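Expression was measured on 10 bead arrays, grouped from the labels alone, and no array was left out. Per the file headers, the deposited scanner table holds 45281 probes, each with an intensity and a detection p-value per array. The sources used here do not say how the authors processed it. The deposited series value table holds linear intensities for 8 arrays and log2 values for the osteocyte pair. Its IDs did not pair with the scanner table on those 8 arrays (Spearman rho from -0.00745 to -0.00155), so it served as an alternative only, after matching rows by rank.

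Background correction used normexp on detection p-values (offset 16), followed by quantile normalisation and a log2 step (neqc of limma 3.58.1, R 4.3.3). GEO's array annotation named 1 gene for 34885 probes, several for 18 and none for 10378. limma's lmFit and eBayes were run on probes that 2 or more of the fitted arrays detected, with Benjamini-Hochberg adjustment over all of them and calls under 0.05. The paired fit had 6 arrays, blocked by lineage, with 2 residual degrees of freedom; the fit with MSC had 8 arrays and 5. Fits were tested on simulated data of the same layout. Single arrays and pairs were described at 2-fold, with detection on the higher side. The members, gene lists and tests were chosen with earlier results of these data known. Named were all 9 members, pathway genes 2-fold from both MSC arrays on at least 3 arrays in 1 direction or the same way in all 3 pairs, or called in a fit (at most 16, widest range first), and the 3 genes most like each member detected on at least 5 arrays, passing over members and predicted names; Bmpr2, Acvr1, Smad1, Smad5, Smad7, Bambi and Msx2 are named beyond this rule, after their values were seen. Alternatives changed the background correction, scaling, filter, source table, arrays, block and probe.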

Additional observations from a re-analysis of the deposited data

Results flagged for a closer look

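Grem1 differed in direction between lineages. Reprogrammed minus differentiated was 2.08 in adipocytes and 1.27 in osteocytes, against -1.63 in chondrocytes, and treated minus untreated in vivo osteocytes was -1.05. Each value compares 1 array with 1 array, and the difference between lineages was not tested. On the differentiated chondrocyte and in vivo osteocyte arrays, the arrays subtracted in the negative values, 11 of 11 macrophage markers were detected; their part was not tested.

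Id1 also went both ways. Reprogrammed minus differentiated was 1.06 in chondrocytes and -2.11 in osteocytes, and treated minus untreated in vivo osteocytes was 1.79. This difference was not tested either. Both positive values subtract the arrays with 11 of 11 macrophage markers, whose part was not tested. The gap between MSC 2 and MSC 1, 2.20 for Id1, is as large as any of these values.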

How the results depend on the processing

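No member passed the tests under any setting tried. For the 3-lineage test, called probes numbered 49, against 0 without background correction, 0 with no filter on detection, 0 once the in vivo arrays were added, 10 with an offset of 50 and with 75th percentile scaling, 31 with the series value table, 9 with a filter at 0.05, 344 without the lineage block, 316 from the fit of 8 arrays, and 55 to 330 leaving out 1 lineage (211 without adipocytes, 330 without osteocytes). For differentiated minus MSC they numbered 3, against 1 without the filter, 0 with the in vivo arrays, 0 with only the 2 classes, and 0 to 11 leaving out 1 lineage or MSC array. For reprogrammed minus MSC the count was 0 throughout. Counts of members 2-fold from MSC were 8, against 27 with MSC 1 alone and 17 with MSC 2 alone; within pairs 12, against 5 without background correction.

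Some directions turned, none of them called. In the 3-lineage test, leaving out 1 lineage gave -0.38 to 0.33 for Bmpr1a, -0.18 to 1.67 for Grem1, -1.12 to 0.47 for Id1, -0.01 to 0.73 for Id2 and -0.61 to 0.11 for Id3; 75th percentile scaling gave -0.0031 for Bmpr1a, and the in vivo arrays 0.15 for Id1 and 0.13 for Id3. For differentiated minus MSC, leaving out arrays gave -1.12 to 1.43 for Bmp4, -0.53 to 0.27 for Bmpr1a, -1.12 to 0.87 for Id2 and -0.07 to 0.82 for Id3, and the in vivo arrays 0.08 for Id2. For reprogrammed minus MSC they gave -2.54 to 0.24 for Bmp4, -0.49 to 0.19 for Bmpr1a, -1.91 to 0.02 for Grem1, -0.28 to 1.92 for Id1, -0.68 to 1.30 for Id2 and -0.19 to 0.51 for Id3, and the in vivo arrays 0.10 for Grem1. By probe ILMN_1236868, Id2 was -0.21 in the adipocyte pair, -2.74 in the chondrocyte pair (0.14 by the brightest), -1.63 in the 3-lineage test (0.43) and 2.00 for differentiated minus MSC (-0.12). The cause of these changes was not tested. No paired analysis by replicate number was possible because only MSC carry numbers; lineage served as the block. Levels near background have no order.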
